A study of Mus musculus with 6 samples.

Results

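The 9 genes described here, Pthlh, Pth1r, Mef2a, Mef2c, Mef2d, Hdac4, Hdac5, Zfp521 and Sik3, encode proteins that hold back or drive the hypertrophy of growth plate chondrocytes. They were chosen by their known roles, though with earlier results of these data known. They were matched by symbol to 9 of the 55487 gene IDs in the deposited count table, and all 9 had enough counts to be tested. Their levels were read in RNA from the rib cages of 6 mouse embryos at embryonic day 16.5. The 3 control embryos (E420, E434 and E435) carry the label wild type. The 3 mutant embryos (E423, E433 and E440) are Col2-cre;Foxc1-/-;Foxc2-/-, so that both forkhead transcription factor genes were deleted wherever the Col2 promoter had switched on the Cre recombinase. In the study's methods the mothers were homozygous for floxed Foxc1 and Foxc2, which gives every embryo of the cross, controls included, floxed alleles, and elsewhere in the study control embryos are those without Col2-cre. The mice had a mixed C57B6 and Black Swiss background. Ribs were cleaned of connective tissue before freezing, and the RNA of the whole piece was sequenced, so cells that never expressed Cre, such as muscle, contributed to every level below.

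In the growth plate, chondrocytes divide, stop dividing and then enlarge, and these hypertrophic cells make the matrix that bone replaces. PTHrP, the secreted protein encoded by Pthlh, acts on its receptor PTH1R in proliferating and prehypertrophic cells and delays that enlargement. Receptor signalling through cyclic AMP and protein kinase A restrains the kinase SIK3, which otherwise keeps HDAC4 in the cytoplasm, and HDAC4 that reaches the nucleus binds MEF2C and blocks the transcription of hypertrophic genes. Indian hedgehog from prehypertrophic cells raises PTHrP in turn and closes a feedback loop. Much of this control acts on phosphorylation and on the location of proteins, which RNA levels do not record.

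Library totals ran from 37853988 to 47794799 counts, so that 1 count was worth 0.0206 to 0.0255 CPM, the count scaled by TMM to library size in which levels are compared between libraries. The libraries within a group were not equally alike. Over genes, log2 ratios had an SD of 0.153 between controls E420 and E435 and 0.132 between mutants E423 and E440, against 0.471 to 1.37 for the other pairs. By chi-square on the expected counts (5.42 and 2.27 per gene, where sampling noise gives 1) the close pairs still differed by more than sampling noise, and each library was kept. Control E434 and mutant E433 held far more RNA of cartilage genes than the other embryos, with 14427 and 4927 CPM of Col2a1, the main collagen of cartilage, against 582 to 631 CPM in the other controls and 162 to 177 CPM in the other mutants. Results below are therefore given with and without these 2 libraries. Values are listed throughout in the order E420, E434, E435 for controls and E423, E433, E440 for mutants. Foxc1 read 23.1, 36.9 and 24.2 CPM among controls against 3.56, 9.61 and 3.51 CPM among mutants, and Foxc2 1.99, 4.83 and 3.22 CPM against 0.65, 1.14 and 0.74 CPM. Both targeted genes were lower in every mutant than in every control, with adjusted p-values of 0.235 for Foxc1 and 0.239 for Foxc2 from edgeR. The study's methods state that littermates were compared, but neither they nor the labels say which of these embryos shared a litter, so p-values measure the spread between these samples.

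Since MEF2 proteins bind a short A/T-rich site, the stretch before each start site was searched for it. RefSeq (GRCm38.p6) gave 12 start sites for 8 of the 9 genes and none for Zfp521, and the 250 bases before each were read on both strands. The degenerate MEF2 site occurred in 2 of the 12 windows, before the start site of Hdac5 and before the third listed start site of Pth1r, and in 959 of 32851 such windows over all genes (2.92%). It reads as a match on both strands. The forkhead letters GTAAACA and ATAAACA occurred in 0 of the 12 windows, against 3.17% and 4.16% of all windows. The GLI letters TGGGTGGTC, read by the hedgehog pathway's transcription factors, also occurred in 0 of the 12, against 0.225%. A match is a description of letters only. Both stretches are printed because they carry the MEF2 match of a receptor and of a deacetylase that recur in the results, with the match in capitals, 5′ to 3′ on the strand of the gene:
Pth1r, GRCm38.p6, minus strand, chr9:110742720-110742860: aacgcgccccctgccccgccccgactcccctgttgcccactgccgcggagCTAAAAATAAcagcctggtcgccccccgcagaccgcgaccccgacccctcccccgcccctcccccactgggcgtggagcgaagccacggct
Hdac5, GRCm38.p6, minus strand, chr11:102230173-102230422: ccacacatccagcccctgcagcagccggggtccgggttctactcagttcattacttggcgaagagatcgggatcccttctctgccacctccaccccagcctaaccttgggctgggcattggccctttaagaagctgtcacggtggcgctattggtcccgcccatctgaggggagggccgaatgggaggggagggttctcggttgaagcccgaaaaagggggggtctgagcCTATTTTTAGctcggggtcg

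The Pth1r stretch is the part of its window that holds no annotated exon, and it lies within introns of Pth1r and of Myl3, a muscle myosin gene on the other strand whose span covers it. It was rich in G and C (73.8%). Its match lies 191 to 200 bases before that start site. The Hdac5 stretch lies upstream of the annotated gene, with 60.8% G and C, and its match lies 11 to 20 bases before the start site.

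None of the 9 genes passed the limits of the study's methods, an adjusted p-value under 0.1 together with a log2 fold change of at least 1 in size, in edgeR's quasi-likelihood test. Over all 26596 genes tested, 0.0639% passed both limits. Without a limit on the fold 0 of the 9 passed as well, against 0.0902% of all genes. At an unadjusted p under 0.05 the count was 1 of 9, Pth1r, against 10.6% of all genes and 4.7% in the direction of lower mutants. DESeq2's Wald test also put 0 of the 9 past both limits (1.33% of all genes), 0 past the adjusted limit at any fold (2.55%) and 1 at an unadjusted p under 0.05 (8.15%). Log2 fold changes of the 9 genes ran from -0.46 to 0.54 with a median of 0.04, beside a median of 0.01 over all genes tested. In 3 genes the fold change was below 0 and in 6 above it. Pth1r was the 1 gene of the 9 whose groups did not overlap, against 15% of all genes tested in either direction and 8.21% with lower mutants, shares near which 1 of 9 lies. In 0 of the 9 did all mutants lie above all controls, against 6.81%. With RNA of whole tissue, fewer cells of a type and less RNA per cell cannot be told apart.

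**Figure D1:**
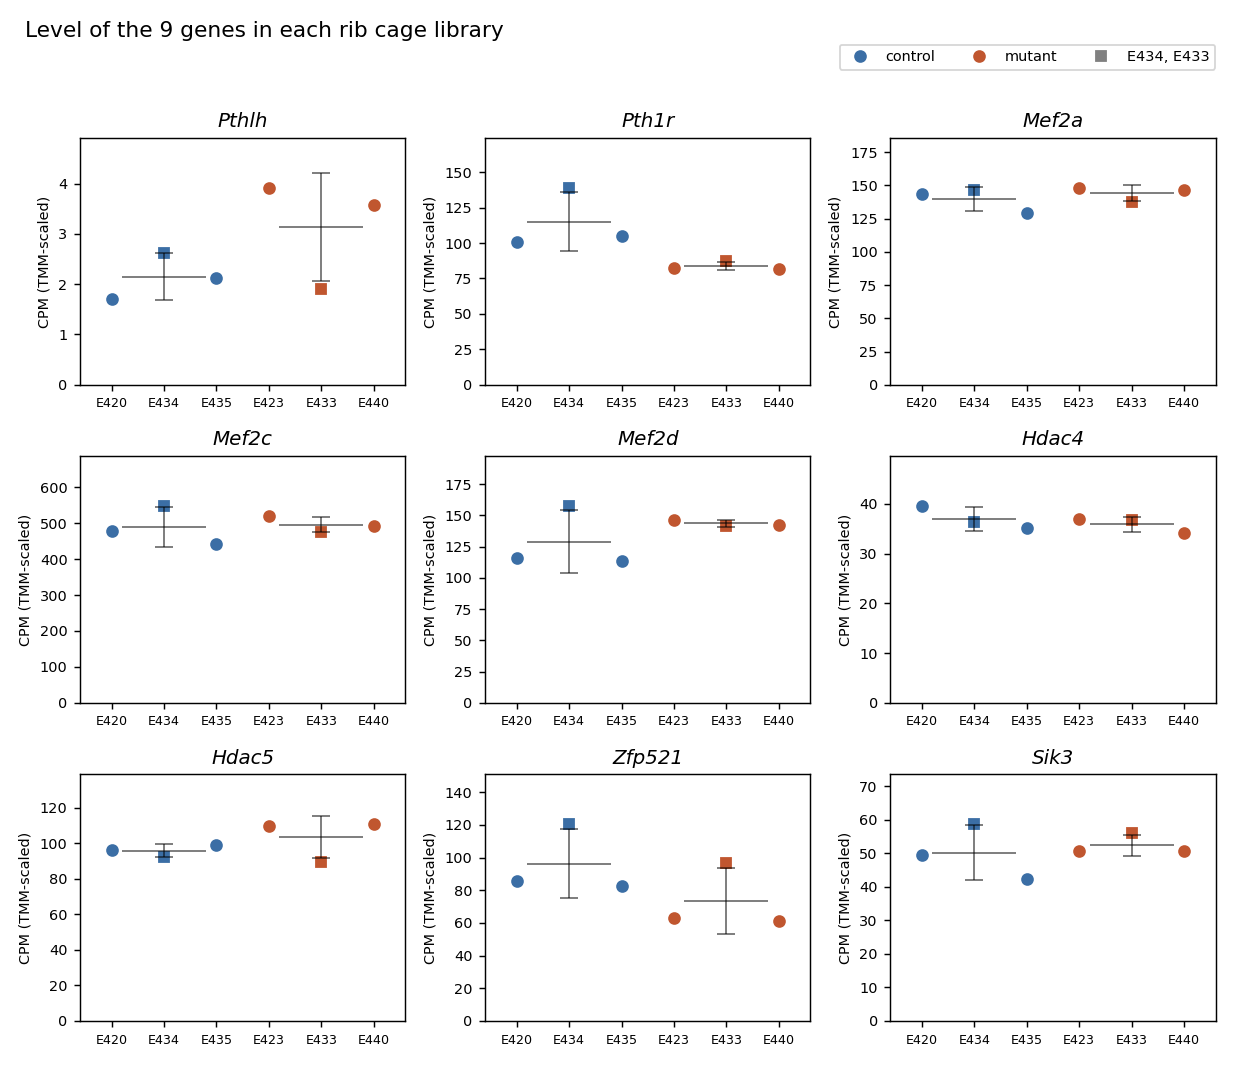
Level of each of the 9 genes in CPM (y axis, from 0, scaled by TMM) in each library (x axis), with controls in blue, mutants in orange and the cartilage-rich E434 and E433 as squares. Lines and bars are the mean and SD of 3 libraries per group; Pth1r is the panel in which every mutant (81.6 to 87.3 CPM) lies below every control (101 to 139 CPM).

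The ligand was scarce. Pthlh (ENSMUSG00000048776.8, chromosome 6 from 147252101 to 147264183 in GRCm38) had 67, 119 and 103 counts in the controls and 163, 82 and 165 counts in the mutants. These made 1.71, 2.63 and 2.12 CPM among controls against 3.92, 1.90 and 3.58 CPM among mutants, so mutants E423 and E440 lay above all controls while mutant E433 lay within their range. The mean was 2.15 ± 0.461 CPM over controls (SD, n = 3) against 3.13 ± 1.08 CPM over mutants (SD, n = 3). The log2 fold change was 0.54 (standard error 0.313), or 1.45-fold with a 95% interval from 0.865 to 2.45, and the adjusted p was 0.577 from edgeR's quasi-likelihood test. This value rested on single embryos. With each library left out in turn the log2 fold change ran from 0.35 without mutant E423 (adjusted p = 0.954 from edgeR) to 0.80 without mutant E433. The latter was the one such fit in which Pthlh passed the adjusted limit (adjusted p = 0.0891 from edgeR), a fit where 13.4% of all genes passed that limit and 4.21% passed both limits. In that fit 4 of the 9 genes, Pthlh, Pth1r, Hdac5 and Zfp521, had an unadjusted p under 0.05, against 25% of all genes.

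Pthlh is also expressed outside cartilage, in skin among other tissues, and the RNA of skin and muscle genes differed between the libraries. The summed level of 11 keratinocyte genes was 6132, 22.5 and 7024 CPM among controls against 28729, 3482 and 28869 CPM among mutants. Of its defining markers, Krt5 read 375, 0.64 and 392 CPM among controls against 899.8, 193 and 897 CPM among mutants, and Krt14 had 263, 1.24 and 288 CPM and then 642, 149 and 625 CPM. Control E434, nearly free of both keratins, had the highest Pthlh of the controls. With the level of Acta1, the actin of skeletal muscle, as a covariate, the log2 fold change of Pthlh was -0.12 (adjusted p = 0.999 from edgeR). The part of muscle or skin in the Pthlh level was not tested beyond these values.

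The receptor lay lower in every mutant, though not past the limits. Pth1r (ENSMUSG00000032492.14, chromosome 9 from 110722085 to 110747145) read 101, 139 and 105 CPM among controls against 82.5, 87.3 and 81.6 CPM among mutants. Every mutant lay below every control, and the mutants were close together. The mean was 115 ± 20.9 CPM over controls (SD, n = 3) against 83.8 ± 3.08 CPM over mutants (SD, n = 3), that is 0.728 times the control level with a 95% interval from 0.584 to 0.908. The log2 fold change of -0.46 (standard error 0.133) had an unadjusted p of 0.012 and an adjusted p of 0.389 from edgeR's quasi-likelihood test, so it did not pass over all genes. DESeq2's Wald test gave an adjusted p of 0.108, above the limit of 0.1. Its log2 fold change of -0.45 was also short of the limit of 1 in size.

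The lower Pth1r level was seen both among cartilage-rich and among cartilage-poor libraries. Mutant E433 against control E434, 1 library each, gave a log2 ratio of -0.67. The mean of E423 and E440 against the mean of E420 and E435 gave -0.33. In these comparisons Col2a1 was lower in mutants too, with log2 ratios of -1.55 and -1.84, so libraries of like cartilage content were not compared. Leaving out single libraries kept the log2 fold change of Pth1r between -0.54 and -0.30. With the mean level of 14 cartilage genes as a covariate it was -0.34 (adjusted p = 0.200 from edgeR). In that fit 0 of the 9 genes had an adjusted p under 0.1, against 1.84% of all genes and 0.887% past both limits, and Pth1r and Zfp521 had an unadjusted p under 0.05, against 13.7%. Osteoblasts also carry this receptor, and the summed level of 10 osteoblast genes was apart in the same way, from 18042 to 26764 CPM in controls and from 13111 to 14500 CPM in mutants. Most of this sum was Col1a1 and Col1a2, with 10649 and 8367 of 19332 CPM in control E420. The part of osteoblasts in the Pth1r level was not tested. Of the 2925 exon bases of Pth1r, 95 are shared with Myl3 on the opposite strand, where reads of neither gene were counted. Myl3 itself lay between 115 and 133 CPM in all 6 libraries.

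For the kinase and the deacetylases the groups overlapped. Sik3 (ENSMUSG00000034135.15, chromosome 9 from 46012820 to 46224194), which lies between the receptor and the deacetylases, read 49.4, 58.8 and 42.4 CPM among controls against 50.6, 56.0 and 50.6 CPM among mutants. All mutants lay inside the control range. Its fold was 1.04 with a 95% interval from 0.842 to 1.29 (adjusted p = 0.892 from edgeR).

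Hdac4 (ENSMUSG00000026313.16, chromosome 1 from 91928779 to 92195699), the deacetylase that binds MEF2C in chondrocytes, read 39.7, 36.3 and 35.1 CPM among controls against 36.9, 36.7 and 34.2 CPM among mutants. It was among the steadiest of the 9 genes, with a fold of 0.971 and a 95% interval from 0.846 to 1.11 (adjusted p = 0.882 from edgeR). Hdac5 (ENSMUSG00000008855.17, chromosome 11 from 102194432 to 102230166), a deacetylase of the same class, read 96.3, 92.1 and 99.2 CPM among controls against 109.7, 89.8 and 111 CPM among mutants. Mutants E423 and E440 lay above all controls and mutant E433 below them. The fold of Hdac5 was 1.08 with a 95% interval from 0.913 to 1.28 (adjusted p = 0.726 from edgeR).

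The groups overlapped for the MEF2 transcription factor genes as well. Mef2c (ENSMUSG00000005583.16, chromosome 13 from 83504034 to 83667080), whose product drives hypertrophy, read 479, 549 and 441 CPM among controls against 519.6, 477 and 491 CPM among mutants. All mutants lay inside the control range. Its fold was 1.01 with a 95% interval from 0.845 to 1.21 (adjusted p = 0.964 from edgeR).

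Mef2a (ENSMUSG00000030557.17, chromosome 7 from 67231163 to 67372858) read 144, 146 and 129.6 CPM among controls against 148, 137 and 146 CPM among mutants, a fold of 1.03 with a 95% interval from 0.903 to 1.18 (adjusted p = 0.871 from edgeR). The groups overlapped. Mef2d (ENSMUSG00000001419.17, chromosome 3 from 88142372 to 88172086) read 116, 158 and 113 CPM among controls against 147, 142 and 142 CPM among mutants, a fold of 1.11 with a 95% interval from 0.885 to 1.40 (adjusted p = 0.723 from edgeR). Here the mutants lay between control E434 and the other controls. The antisense gene 1700113A16Rik shares 531 of the 5985 exon bases of Mef2d and had 182 counts over the 6 libraries, against 35985 for Mef2d.

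MEF2 factors are also made in skeletal muscle, where they act with the myogenic factors, so the 3 genes were read against Acta1. Acta1 read 4368, 7072 and 4449 CPM among controls against 10469, 5264 and 10106 CPM among mutants, with E423 and E440 above all controls (log2 fold change 0.70, adjusted p = 0.516 from edgeR). The summed level of 15 muscle genes followed the same order, with 17741, 28899 and 18106 CPM among controls against 39209, 22563 and 38209 CPM among mutants. Its genes for myogenic factors, Myod1 and Myog, named after their values were seen, did not follow that order. Myod1 read 71.2, 75.5 and 73.3 CPM among controls against 52.8, 68.7 and 50.9 CPM among mutants. Myog read 294, 319 and 302 CPM among controls against 242, 334 and 239 CPM among mutants. Per 1000 counts of Acta1, Mef2c had 109.6, 77.6 and 99.1 counts in the controls and 49.6, 90.6 and 48.6 in the mutants. Mef2a had 32.9, 20.7 and 29.1 and then 14.2, 26.1 and 14.5, and Mef2d had 26.6, 22.3 and 25.5 and then 14.0, 26.9 and 14.1. On this scale mutants E423 and E440 lay below every control for all 3 genes, and mutant E433 lay within or above the control range.

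The MEF2 genes varied less than Acta1 from library to library. Acta1 differed 2.40-fold between its highest and lowest library, and Mef2a, Mef2c and Mef2d 1.15-fold, 1.24-fold and 1.39-fold. With the level of Acta1 as a covariate the log2 fold changes were -0.03 for Mef2a, -0.10 for Mef2c and 0.00 for Mef2d. The first 2 changed sign against the fit without it, and all 3 had an adjusted p of 0.999 from edgeR. How much of each MEF2 level came from muscle was not tested.

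**Figure D2:**
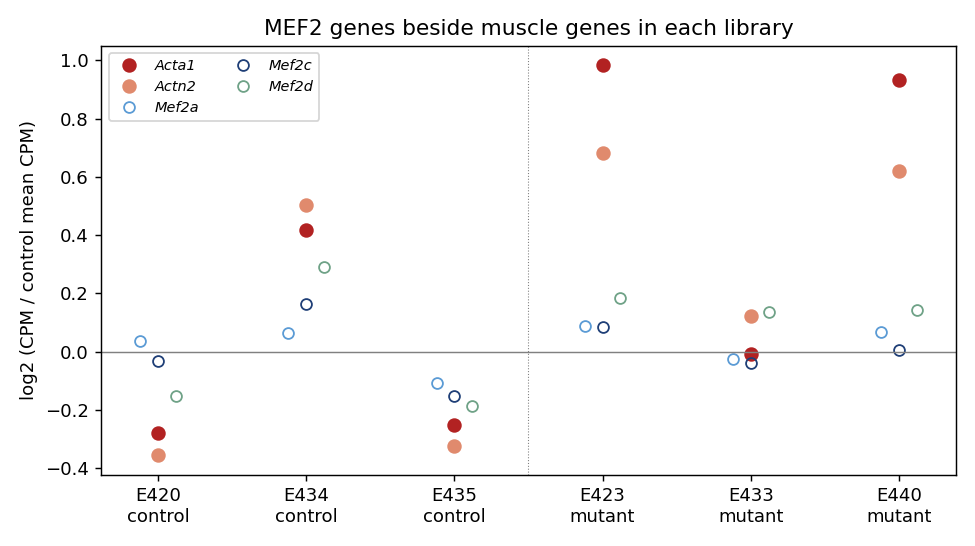
Log2 of the CPM of 2 muscle genes (Acta1 and Actn2, filled) and 3 MEF2 genes (open) over the control mean CPM of the same gene (y axis) in each library (x axis, controls left of the dotted line). In mutants E423 and E440 Acta1 lies at 0.98 and 0.93, while the MEF2 genes lie between 0.01 and 0.18.

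Zfp521 (ENSMUSG00000024420.9, chromosome 18 from 13687013 to 13972787), a zinc finger protein that works with HDAC4 downstream of PTHrP to hold back hypertrophy, read 85.6, 121 and 82.6 CPM among controls against 62.9, 97.0 and 61.0 CPM among mutants. Mutants E423 and E440 lay below all controls, and mutant E433 lay between control E434 and the other controls. The mean was 96.3 ± 21.2 CPM over controls (SD, n = 3) against 73.6 ± 20.2 CPM over mutants (SD, n = 3). The log2 fold change was -0.39 (standard error 0.230, adjusted p = 0.586 from edgeR). It was 0.764-fold with a 95% interval from 0.522 to 1.12. Zfp521 was higher in both cartilage-rich libraries than in the others of their groups, and E433 against E434 gave a log2 ratio of -0.32. With each library left out in turn the log2 fold change ran from -0.63 without mutant E433 (adjusted p = 0.107 from edgeR) to -0.19 without control E434 (adjusted p = 0.784 from edgeR). With the cartilage genes as a covariate it was -0.17 (adjusted p = 0.293 from edgeR). The summed level of the 14 cartilage genes was 2127, 28603 and 2029 CPM among controls against 682, 10585 and 659 CPM among mutants. Its part in the Zfp521 level was not tested further.

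With control E434 and mutant E433 both left out, 8 of the 9 genes had an adjusted p under 0.1 in edgeR's quasi-likelihood test, all but Hdac4, and the same 8 had an unadjusted p under 0.05. In the same fit 37.6% and 39.8% of all genes did, and the libraries left are the 2 close pairs. Its p-values therefore measure against the small spread within those pairs, and anything else a pair shares cannot be told apart from genotype. In that fit 0 of the 9 passed the limit on the fold while 8.25% of all genes passed both limits. The log2 fold changes were 0.96 for Pthlh and -0.33 for Pth1r, -0.44 for Zfp521 and 0.34 for Mef2d. Those of Mef2a, Mef2c, Hdac5 and Sik3 lay between 0.11 and 0.18. Directions were the same as with all 6 libraries for all 9 genes. For Mef2d, leaving out control E434 by itself gave a log2 fold change of 0.32 with an unadjusted p of 0.00409 and an adjusted p of 0.261 from edgeR. Leaving out control E420 or control E435 moved it the other way, to 0.08 and 0.06 (adjusted p = 0.914 and 0.917 from edgeR).

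**Figure D3:**
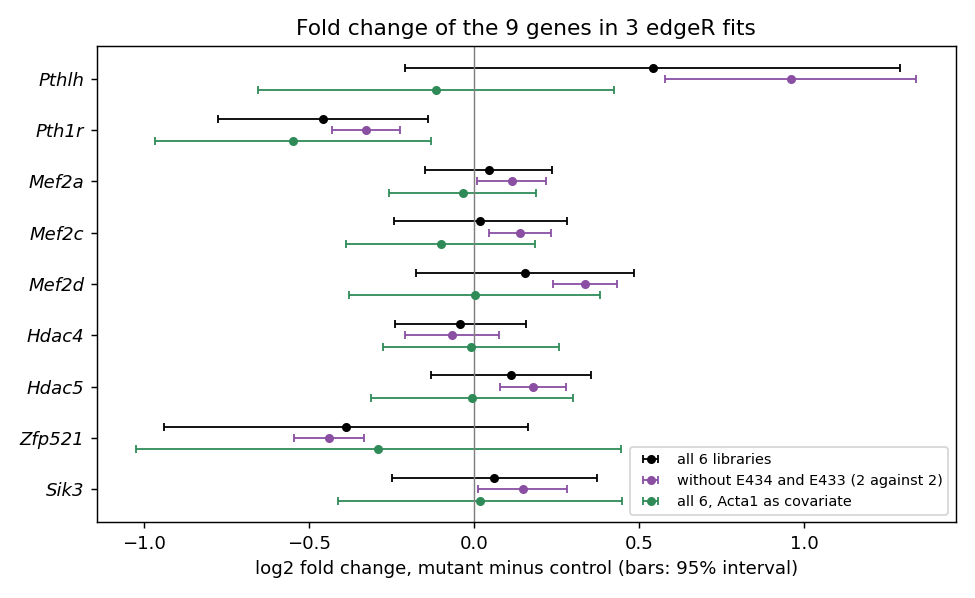
Log2 fold change (x axis, mutant minus control) of the 9 genes (y axis) in 3 edgeR fits: all 6 libraries (black), without E434 and E433 (purple) and with Acta1 as a covariate (green), with bars for the 95% interval. Pth1r is the gene whose interval stays below 0 in all 3 fits, with log2 fold changes of -0.46, -0.33 and -0.55; Pthlh goes from 0.54 to 0.96 and -0.12.

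The levels of different genes were set side by side on the TPM scale of RSEM, which is per transcript length. Mef2c stood first in every library, with 187, 207 and 162 TPM in controls and 192, 215 and 173 TPM in mutants. Hdac5 (58.7 to 71.8 TPM), Pth1r (45.1 to 85.1 TPM), Mef2d (40.8 to 58.0 TPM) and Mef2a (36.6 to 43.9 TPM) followed, with ranges that overlapped between neighbours. Zfp521 (17.3 to 36.0 TPM) and Sik3 (15.7 to 21.9 TPM) came next and overlapped each other. Hdac4 (6.44 to 9.49 TPM) and Pthlh (1.68 to 3.50 TPM) stood last and were apart from their neighbours in all 6 libraries. The first and the last 2 places were the same in every library.

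**Figure D4:**
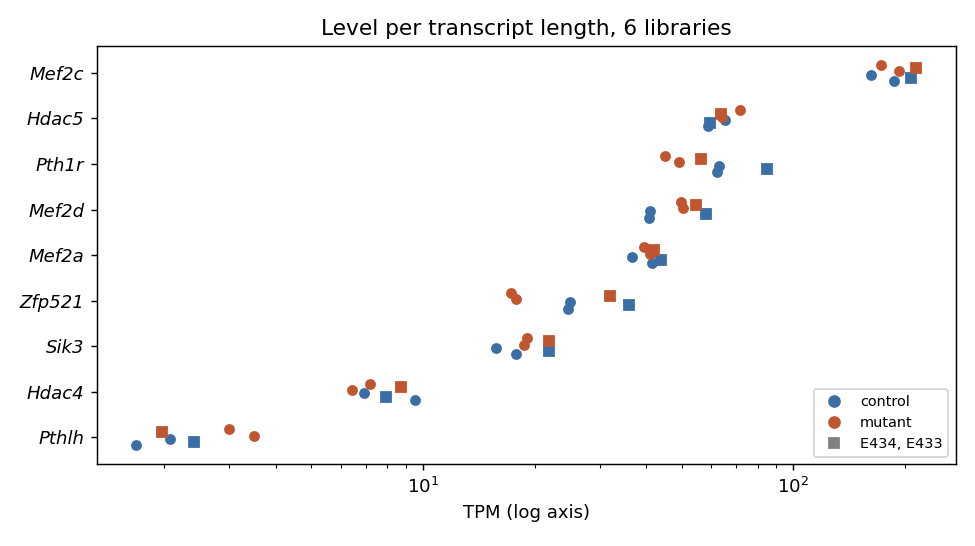
TPM (x axis, log scale) of each of the 9 genes (y axis) in the 6 libraries, with controls in blue, mutants in orange and E434 and E433 as squares, offset vertically by library. Mef2c (162 to 215 TPM) is highest in every library and Pthlh (1.68 to 3.50 TPM) lowest.

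Ratios of these TPM values within a library compared RNA levels in the whole rib cage piece. They do not give the balance of these proteins in the growth plate. The receptor stood 37.0, 35.3 and 30.2 times above its ligand in the controls and 14.0, 28.5 and 15.1 times in the mutants, so all mutants lay below all controls, mutant E433 by little. This ratio joins the lower Pth1r and the unequal Pthlh levels given above and rests on fewer than 200 Pthlh counts in each library. How often the ratios of other gene pairs separate the groups was not tested. Hdac5 stood at least 6.18 times above Hdac4 in every library. Mef2c stood 4.37 to 5.11 times above Mef2a and 3.48 to 4.59 times above Mef2d over the 6 libraries.

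The 9 genes also differed in how much they varied among embryos, whatever the group. Between the highest and the lowest library Pthlh differed 2.30-fold, Zfp521 1.98-fold and Pth1r 1.71-fold. Hdac4 and Mef2a differed 1.16-fold and 1.15-fold, and the median over the 16430 genes with a mean of at least 1 CPM and a count in every library was 1.40-fold. Of those genes, 87.2% varied less than Pthlh and 8.94% varied less than Mef2a.

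For Pthlh, Pth1r and Mef2c the genes with the most similar pattern were sought among 13959 protein-coding genes, by the root mean square difference of log2 CPM centred on each gene's mean over 6 libraries. Nearest to Pthlh were Tnni2, a fast troponin of skeletal muscle (0.0714), Ppp1r14c (0.0835) and Cisd3 (0.0866). Tnni2 read 904, 1239 and 973 CPM among controls against 1824, 967 and 1786 CPM among mutants, the arrangement seen for Pthlh. Nearest to Pth1r were Tmem176a (0.0273), Sparc, a matrix protein abundant in bone (0.0302), and Plvap, a protein of blood vessel walls (0.0418). Sparc read 3654, 5135 and 3674 CPM among controls against 2888, 3152 and 2862 CPM among mutants. Near to Mef2c were Dennd1a (0.0176) and Cited1 (0.0212), which like Mef2c varied little. With 6 libraries, of which 2 pairs are close, many genes share such a pattern.

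The rest of the pathway was read from lists of genes. At an unadjusted p under 0.05, 1251 of all 26596 genes tested were lower (4.7%) and 1569 were higher. Of 18 genes of PTH1R signalling, 17 were tested. Pth, the hormone that shares the receptor, had 4 counts in mutant E433 and 0 in each other library. None of the 17 passed both limits, and 1 was lower at an unadjusted p under 0.05, the adenylate cyclase gene Adcy3 (log2 fold change -0.36, adjusted p = 0.437 from edgeR). The median log2 fold change was -0.04. Gna11 (-0.19), which encodes a G protein subunit, Prkar2a (0.21), a regulatory subunit of protein kinase A, and Arrb2 (0.21), a beta-arrestin, followed by p.

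Of 22 genes for HDAC and MEF2 partners, all tested, 0 passed both limits and 1 was lower at an unadjusted p under 0.05. This was Camk4, a calcium-dependent kinase that acts on class IIa deacetylases, with 3.64, 6.99 and 3.81 CPM among controls against 1.73, 3.48 and 1.93 CPM among mutants (log2 fold change -1.02, adjusted p = 0.437 from edgeR). The median was -0.01. Hdac9 (-0.26), Stk11 (0.13), whose product activates the SIK kinases, and Prkd1 (-0.30) did not reach an unadjusted p under 0.05.

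The hedgehog genes that feed the loop were 9, all tested, with 0 past both limits, 2 lower at an unadjusted p under 0.05 and a median log2 fold change of -0.28. Ihh, the hedgehog ligand of prehypertrophic chondrocytes, read 2.47, 25.3 and 3.20 CPM among controls against 1.15, 6.29 and 1.78 CPM among mutants. It was highest in the cartilage-rich library of each group and the groups overlapped (log2 fold change -1.75, adjusted p = 0.595 from edgeR). Hhip, a hedgehog-binding protein that is itself a target of the pathway, read 21.7, 37.6 and 21.6 CPM among controls against 12.2, 15.0 and 11.98 CPM among mutants, every mutant below every control (log2 fold change -1.04, adjusted p = 0.330 from edgeR). Kif7 (-0.28) was the other gene at an unadjusted p under 0.05, and Smo (-0.30) was not.

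Of 14 transcription factors of hypertrophy and of bone, 0 passed both limits, 4 were lower and 1 was higher at an unadjusted p under 0.05, and the median log2 fold change was -0.59. Runx2, a partner of MEF2C in hypertrophy and the master factor of osteoblasts, had a log2 fold change of -1.13 (adjusted p = 0.155 from edgeR). Sp7, which acts downstream of it, had -1.32 (adjusted p = 0.146 from edgeR), and Dlx6 had -1.88 (adjusted p = 0.235 from edgeR). The fourth, Dlx5 (-0.66), is named after its value was seen. Shox2, a homeobox gene, was higher, with 6.46, 4.30 and 6.45 CPM among controls against 15.5, 14.7 and 14.3 CPM among mutants (log2 fold change 1.37, adjusted p = 0.145 from edgeR).

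The 8 hypertrophic markers, the genes these regulators act on, had a median further from 0 than any of the regulator lists. Of them 6 were lower at an unadjusted p under 0.05 and apart between groups, against 4.7% and 8.21% of all genes tested. None passed both limits, and the median log2 fold change was -1.25. The others were Col10a1 and Vegfa (log2 fold change 0.03, named after its value was seen), whose groups overlapped. Col10a1, the collagen of hypertrophic cartilage, read 114, 559 and 113 CPM among controls against 75.6, 126 and 73.6 CPM among mutants (log2 fold change -1.51, adjusted p = 0.492 from edgeR), and mutant E433 lay above 2 controls. Mmp13, a collagenase of late hypertrophic cells and osteoblasts, read 200.2, 207 and 208 CPM among controls against 35.1, 4.29 and 37.8 CPM among mutants (log2 fold change -3.00, adjusted p = 0.346 from edgeR). Some of these markers had been singled out by the study in the same libraries, so their count is not independent evidence of a direction, and several are shared with osteoblasts.

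**Figure D5:**
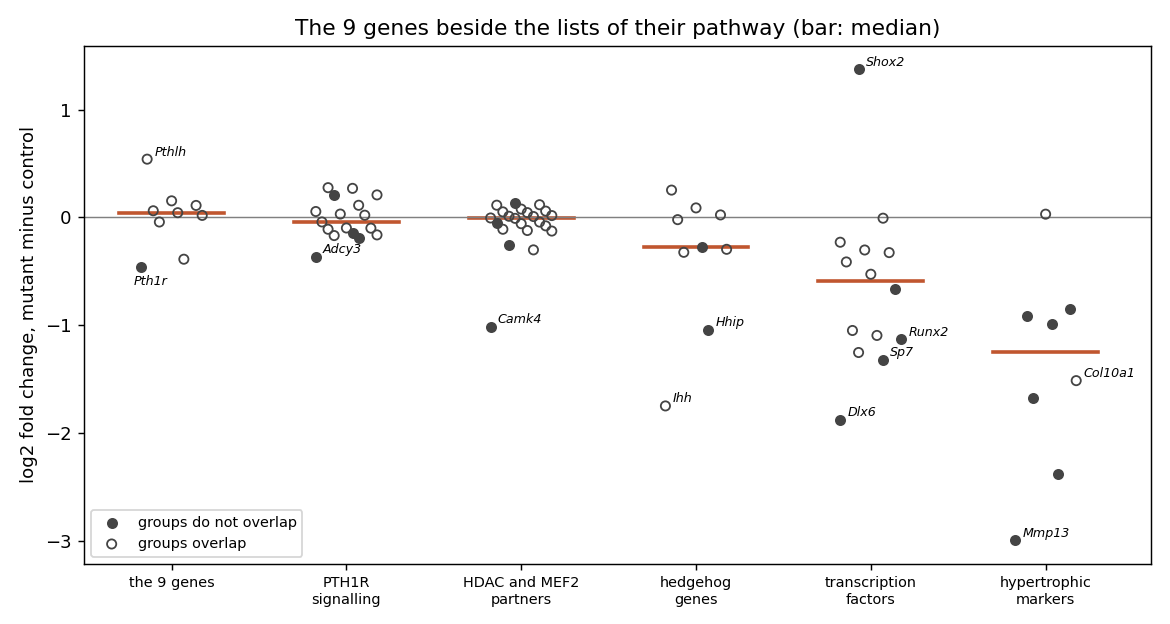
Log2 fold change (y axis, mutant minus control, edgeR with all 6 libraries) of the 9 genes and of the tested genes of 5 lists of their pathway (x axis), 1 circle per gene, filled where the groups do not overlap, with a bar at the median of each list. Medians are 0.04 for the 9 genes, -0.04, -0.01, -0.28 and -0.59 for the regulator lists in order, and -1.25 for the hypertrophic markers.

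Markers of the other cells in the rib cage were read in the same way, as a measure of what each library held. Of 14 cartilage genes 0 had an unadjusted p under 0.05, with a median log2 fold change of -1.36 and overlapping groups for every gene, and Acan read 39.5, 646 and 37.1 CPM among controls against 19.9, 258 and 19.6 CPM among mutants. Of 10 osteoblast genes 8 were lower at an unadjusted p under 0.05, against 4.7% of all genes tested. Col1a1 had a log2 fold change of -0.65 and Col1a2 of -0.61, and 1 gene passed both limits, Phex, which was picked out after its value was seen (-1.68, adjusted p = 0.0775 from edgeR). As a background, 1569 of all 26596 genes tested were higher and 1251 lower at an unadjusted p under 0.05. The lists themselves were chosen with earlier results of these data known. Of 15 muscle genes 4 were higher and 1 lower at that level (median 0.56), and Actn2 had 0.50. Of 11 keratinocyte genes 2 were higher (median 1.37). Flg, named after its values were seen, had 4, 0 and 1 counts in controls against 22712, 5 and 22215 counts in mutants. All 6 adipocyte genes were higher (median 2.98), Adipoq from at most 0.458 CPM in controls to at least 7.19 CPM in mutants and Fabp4 by 1.498 on the log2 scale. Adipoq, Fabp4, Plin1, Cidea and Pparg had been named by the study as raised in these same libraries. Their count is therefore not independent evidence of a direction, and for Cidea and Ucp1 the groups overlapped. Among 8 endothelial genes 1 was lower (median -0.07), with Pecam1 at -0.02 and Cdh5 at -0.16, and among 7 leukocyte genes 3 were lower (median -0.35), with Ptprc at -0.21 and Csf1r at -0.28. Of 5 erythroid genes 3 were lower, Hba-a1 by a log2 fold change of -0.99 and Hbb-bt of -1.10. The part of these cells in the levels of the 9 genes was not tested beyond the fits given above.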

How the data were processed

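The authors isolated RNA from rib cages, made stranded mRNA libraries and sequenced both ends of each fragment. They aligned reads to GRCm38 with HISAT2 2.1.0 and deposited counts per gene from featureCounts 1.6.0 on exons of GENCODE M25, raw, with each end of a pair counted by itself and without regard to strand. Reads mapped to several places or to overlapping genes went uncounted. The authors also deposited expected counts and TPM per gene from STAR 2.7.6 and RSEM 1.2.31. Their comparison tables hold log2 fold changes and p-values from DESeq2 1.26.0, and neither these nor 12 further columns of per-sample values in them were used here.

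Groups came from the genotype labels. Genes whose counts came to at least 10 in all entered edgeR 4.0.16 under R 4.3.3 (TMM scaling, then glmQLFit and glmQLFTest), with Benjamini-Hochberg adjustment over all genes tested, after the steps had been tested on simulated data. With 3 embryos against 3 a permutation of a single value cannot give a 2-sided p under 0.1. Log2 CPM used a prior count of 2. RSEM expected counts were rounded for 1 alternative, and DESeq2 1.42.0 with its Wald test was another. Symbols came from GENCODE M21, which named 55227 of the 55487 IDs. Per library 3 counts equal 0.0618 to 0.0764 CPM. Counts carry no molecular identifiers, so depth limits cover counting error only.

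The members and gene lists were chosen with earlier results of these data known. Named genes were the 9 members, Foxc1, Foxc2 and Acta1, up to 4 genes of smallest p per pathway list, the first 2 of each cell type list and 3 nearest patterns each for Pthlh, Pth1r and Mef2c. One gene that this rule names is not reported here. Genes with overlapping exons are named where they bear on a member.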

Additional observations from a re-analysis of the deposited data

How the results depend on the processing

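No paired analysis was possible because an embryo's number ties it to no embryo of the other group and, although the study's methods compare littermates, which embryos shared a litter is not labelled. Of 135 refitted log2 fold changes of the 9 genes, 117 kept their direction and their side of the adjusted p limit of 0.1, 9 came past that limit (8 of them without E434 and E433), 0 fell behind it and 9 turned sign. With Acta1 as a covariate the log2 fold change was -0.12 for Pthlh, -0.0349 for Mef2a, -0.10 for Mef2c and -0.0071 for Hdac5. When single libraries were left out it ran from -0.0105 to 0.0816 for Mef2a, -0.0545 to 0.1093 for Mef2c and -0.0497 to 0.192 for Sik3, below 0 without control E435, and for Mef2c also without mutant E423 (-0.0158). For Hdac4 it ran from -0.0819 to 0.0108, above 0 without control E420. None of these 9 values passed the limit with either sign, and the cause was not tested. The number of the 9 genes past both limits was 0 under every alternative run, with 1 to 8 then at an unadjusted p under 0.05. That last number was 1 to 4 when single libraries were left out, 2 with the cartilage covariate and 8 without E434 and E433. Over all genes, 17 passed both limits in edgeR, against 476 with DESeq2's Wald test (121 lower, 355 higher), 35 with a robust empirical Bayes step, 37 with no low-count filter, 10 with RSEM expected counts, 0 with the Acta1 covariate, 236 with the cartilage covariate, 2066 without E434 and E433 (648 lower, 1418 higher), 0 at an adjusted p under 0.01, and 0 to 1087 when single libraries were left out, the last without mutant E433. Pthlh is limited by depth, with 67 to 165 counts per library.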
